A study of Homo sapiens with 9 samples.

Results

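Expression of 10 genes of the interleukin-1 (IL-1) and interleukin-6 (IL-6) cytokine families was examined in OEC-M1 cells, a head and neck squamous cell carcinoma line, after GATA3 knockdown or HIF-1α knockdown. The genes were chosen because IL1A, the gene for IL-1α, was higher with GATA3 siRNA in these same arrays. Every probe whose accession matched one of the 10 symbols in RefSeq was taken, which gave 16 probes for the 10 genes, among 31104 matched probes for 22439 symbols and 58201 probes in all. IL1A, IL1B, IL33, IL18 and IL11 had 1 probe each, IL1RN, IL1R1, IL6 and LIF had 2 each, and IL1RAP had 3. All 10 genes were measured, and no filter on dim signals was applied.

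There were 3 groups of 3 arrays. The si-Control cells received non-targeting siRNA, the GATA3 knockdown cells GATA3 siRNA, and the HIF-1α knockdown cells HIF-1α siRNA, in each case for 72 h, and all of the cells were kept at 1% O2 for 18 h. The controls were thus hypoxic as well, no normoxic cells enter any comparison, and all values come from 1 cell line. The supplementary legend of the array experiment names a single siRNA per target, so effects of an siRNA and of its target were measured together. The methods list 2 siRNAs per target for the study as a whole, and the number in the array labels, read here as a replicate number, could also name an siRNA. That number ran from 1 to 3 in every group, si-Control included. Each of the 3 slides held 1 array of every group, and the slide was the same as the replicate number in the labels. Nothing in the labels says that the arrays of a group came from separate cultures, so P values measure the spread between these arrays only.

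IL-1α, IL-1β, IL-18 and IL-33 are the activating ligands of the IL-1 family covered here. IL-1α and IL-1β bind the receptor IL-1R1, which pairs with the accessory protein encoded by IL1RAP and signals through MyD88 and IRAK kinases to NF-kappaB and AP-1, and the receptor antagonist encoded by IL1RN occupies the same receptor without signalling. IL-6, IL-11 and LIF signal through receptors that share gp130, encoded by IL6ST, to JAK kinases and STAT3. In squamous epithelia IL-1α is stored in the cells as an alarm signal, and chemokines such as IL-8 are classical products of IL-1 signalling.

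GATA3 intensity was lower in GATA3 knockdown than in si-Control by 1.27 on the log2 scale (SE 0.34), with 10.71, 11.12 and 11.48 in si-Control and 9.64, 9.48 and 10.40 in GATA3 knockdown. This difference did not pass after adjustment. In HIF-1α knockdown GATA3 measured 10.30, 11.11 and 10.78, which overlapped GATA3 knockdown. HIF1A was lower in HIF-1α knockdown by 2.32 (SE 0.35, limma adjusted P = 0.295), with no overlap between the groups. On the 9 arrays, the median spot intensity ran from 992.5 to 3560 and the share of probes well above background from 73.3% to 88.0%. No spot was saturated, and the share of non-uniform spots, which were set to missing, ran from 0.149% to 8.67%. Of the epithelial markers, 8 of 10 were well above background on all 9 arrays and KRT5 on none. Of the 6 leukocyte markers with a matched probe, 5 were well above background on all 9 arrays, including PTPRC and CD3E, although the sample was a carcinoma line. Of the 7 fibroblast markers, 2 were well above background on all 9 arrays, COL1A1 and PDGFRB, and COL3A1, PDGFRA and LUM on none. A mark of well above background was therefore not used as evidence that a gene is transcribed. For each array, the log2 of the summed marker intensities was taken, which is weighted to the brightest probes. For the epithelial markers it was 19.61 to 20.27 in si-Control and 19.73 to 20.30 in HIF-1α knockdown. In GATA3 knockdown it was 19.05 to 19.83, and there KRT19 was lower than in si-Control by 0.72 and passed the unadjusted threshold. In the same order the leukocyte sums were 15.62 to 16.76, 16.73 to 16.80 and 16.02 to 16.65, and the fibroblast sums 15.65 to 17.02, 16.29 to 16.64 and 16.15 to 16.62. The part of these markers in the results below was not tested. In RNA from whole cultures, fewer cells expressing a gene and less of its RNA per cell cannot be told apart.

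RefSeq promoter sequences (GRCh38.p14) were found for 8 of the 10 genes. They are shown for the 3 genes with the highest differences in GATA3 knockdown and for IL6, a well known target of NF-kappaB, as the 250 bases before the annotated start. Capitals mark 4 motifs searched on both strands. These were the GATA motif (AGATAA or AGATAG or TGATAA or TGATAG), the NF-kappaB consensus, the AP-1 motif (TGANTCA, which reads the same on both strands) and the hypoxia response core (ACGTG or GCGTG). No 2 of the matches shown overlap.
IL1A (chr2:112784494-112784743, minus strand, the more upstream of 2 listed starts): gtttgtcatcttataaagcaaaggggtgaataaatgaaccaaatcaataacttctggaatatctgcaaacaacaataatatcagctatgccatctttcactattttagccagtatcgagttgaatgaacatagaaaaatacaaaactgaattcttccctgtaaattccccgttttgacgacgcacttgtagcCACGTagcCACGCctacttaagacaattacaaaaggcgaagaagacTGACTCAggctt
IL1B (chr2:112836780-112837029, minus strand): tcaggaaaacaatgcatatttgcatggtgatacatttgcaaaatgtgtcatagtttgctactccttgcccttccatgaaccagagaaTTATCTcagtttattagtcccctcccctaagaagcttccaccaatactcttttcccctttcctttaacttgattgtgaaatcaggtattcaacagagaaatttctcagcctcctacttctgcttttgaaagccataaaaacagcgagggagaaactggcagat
IL11 (chr19:55370464-55370713, minus strand): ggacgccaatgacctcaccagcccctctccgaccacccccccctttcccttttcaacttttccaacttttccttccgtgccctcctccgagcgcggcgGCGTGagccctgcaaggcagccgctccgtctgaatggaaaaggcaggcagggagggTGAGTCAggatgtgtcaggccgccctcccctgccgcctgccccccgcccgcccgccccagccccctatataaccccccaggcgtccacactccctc
IL6 (chr7:22726950-22727199, plus strand): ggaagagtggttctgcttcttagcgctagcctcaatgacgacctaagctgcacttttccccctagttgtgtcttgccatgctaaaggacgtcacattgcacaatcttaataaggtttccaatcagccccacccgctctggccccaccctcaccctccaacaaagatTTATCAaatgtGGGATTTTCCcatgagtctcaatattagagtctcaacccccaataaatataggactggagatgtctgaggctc
In IL1A, an AP-1 motif began 12 bases before the start, and hypoxia response cores began 58 and 50 bases before it on the opposite strand. IL11 held an AP-1 motif 96 bases and a hypoxia response core 152 bases before its start. IL1B held 1 GATA motif 163 bases before its start, on the opposite strand, and none of the other motifs. IL6 held a GATA motif on the opposite strand 84 bases and an NF-kappaB consensus 73 bases before its start. Of the promoters not shown, IL1RN held an AP-1 motif 223 bases before its start, and IL1R1 a GATA motif 242 bases and a hypoxia response core 111 bases before its start. IL33 and IL1RAP held none of the 4. Over 35116 listed promoters, the share with at least 1 match in these 250 bases was 22.3% for GATA, 9.96% for NF-kappaB, 6.57% for AP-1 and 43.2% for the hypoxia response core. These matches describe letters in a window and are not measured binding sites.

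All values below are log2 intensities after quantile normalization, given in the order of slides 1, 2 and 3, and differences are on the same log2 scale. Intensities of different probes are not on a common scale and were not set against each other. Because the genes were chosen on the comparison of GATA3 knockdown with si-Control, their values in it are a description and carry no test. The comparison with HIF-1α knockdown uses the same GATA3 knockdown arrays and is described in the same way. Only HIF-1α knockdown against si-Control was tested, and it shares its si-Control arrays with the first comparison.

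IL1A was far higher in GATA3 knockdown than in the other groups. Its log2 intensity was 9.77, 10.50 and 11.10 in si-Control, 13.71, 11.64 and 13.60 in GATA3 knockdown, and 9.50, 9.46 and 10.08 in HIF-1α knockdown. Every GATA3 knockdown array lay above every array of the other groups, with the second array closest to them. The difference from si-Control was 2.53 (SE 0.54), or 5.76-fold. Within slides it was 3.94, 1.14 and 2.50, and with the slide as a block 2.53 (SE 0.45). The GATA3 knockdown arrays with the highest IL1A, on slides 1 and 3, also had the lowest shares of probes well above background of all 9 arrays, 75.5% and 73.3%, against 83.0% on the array of slide 2. The part of this measure in the result was not tested. Without GATA3 knockdown replicate 2 the difference was 3.20, and without replicate 1 it was 2.16. GATA3 knockdown exceeded HIF-1α knockdown by 3.30, or 9.86-fold, and by 4.20, 2.19 and 3.52 within slides.

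IL1B, whose product is activated by inflammasome cleavage, was also highest in GATA3 knockdown. It measured 9.52, 8.87 and 8.52 in si-Control, 10.71, 10.06 and 10.92 in GATA3 knockdown, and 9.38, 9.24 and 9.39 in HIF-1α knockdown. The 3 GATA3 knockdown arrays again lay above all 6 others, and the HIF-1α knockdown arrays lay inside the range of si-Control. The difference from si-Control was 1.59 (SE 0.32), or 3.02-fold. It was 1.19 on slides 1 and 2 and 2.40 on slide 3, where the si-Control array was the lowest of its group. Against HIF-1α knockdown the difference was 1.22 (SE 0.32).

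IL1RN did not follow the agonists. Its brighter probe measured 13.17, 13.56 and 14.24 in si-Control, 13.45, 13.11 and 13.97 in GATA3 knockdown, and 12.99, 13.25 and 13.35 in HIF-1α knockdown. The 3 groups overlapped, and the difference between GATA3 knockdown and si-Control was -0.15 (SE 0.33). The second probe, which matched the same transcript, gave 9.48, 10.87 and 11.77 in si-Control and 9.08, 9.79 and 10.43 in GATA3 knockdown, a difference of -0.94 (SE 0.59), with overlap. On slide 1 the probes differed in direction, 0.27 for the brighter and -0.40 for the other.

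IL18, which like IL1B is cleaved by caspase-1, varied widely between arrays of a group. It measured 13.53, 14.20 and 15.57 in si-Control, 14.11, 13.24 and 15.13 in GATA3 knockdown, and 12.93, 13.92 and 13.67 in HIF-1α knockdown. The difference between GATA3 knockdown and si-Control was -0.27 (SE 0.58), and it was 0.58, -0.96 and -0.44 within slides. IL33, which encodes a nuclear alarm cytokine, measured 10.26, 10.42 and 10.52 in si-Control and 10.08, 10.53 and 10.76 in GATA3 knockdown, a difference of 0.06 (SE 0.27). Its spot was non-uniform on HIF-1α knockdown arrays 1 and 3, so that group had a single value, 10.40.

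The receptor genes overlapped between the groups on every probe. IL1R1 measured 10.60, 10.69 and 11.76 in si-Control, 10.91, 10.63 and 11.12 in GATA3 knockdown, and 10.71, 10.97 and 11.37 in HIF-1α knockdown. The difference between GATA3 knockdown and si-Control was -0.13 (SE 0.34), and 0.15 (SE 0.46) on the second IL1R1 probe. The 3 probes of IL1RAP, which match different transcripts, differed among themselves. The brightest measured 12.92, 13.04 and 14.59 in si-Control, 14.46, 12.67 and 14.43 in GATA3 knockdown, and 13.35, 13.33 and 13.66 in HIF-1α knockdown. Its difference in GATA3 knockdown was 0.34 (SE 0.55), while the probe for NM_002182 gave 1.02 (SE 0.53) and that for NM_001167931 gave -0.10 (SE 0.39). On slide 1 the NM_002182 probe was higher by 2.32 in GATA3 knockdown, against 0.56 and 0.18 on slides 2 and 3.

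Among the IL-6 family genes, IL11 was higher in GATA3 knockdown. It measured 8.28, 8.80 and 9.61 in si-Control, 10.06, 9.72 and 10.66 in GATA3 knockdown, and 8.38, 8.18 and 8.59 in HIF-1α knockdown, the last group with 2 of 3 arrays well above background. The GATA3 knockdown arrays lay above all others, although the lowest of them exceeded the highest si-Control array only slightly. The difference from si-Control was 1.25 (SE 0.37), or 2.38-fold, and it was 1.78, 0.92 and 1.05 within slides. Without si-Control replicate 1 it was 0.94. Against HIF-1α knockdown it was 1.76 (SE 0.37), or 3.39-fold.

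IL6 was measured on the brighter probe on 2 si-Control arrays, 10.79 and 11.77 on slides 2 and 3, and the spot of slide 1 was non-uniform. It measured 11.42, 11.48 and 11.95 in GATA3 knockdown, and 11.66 and 12.02 on slides 2 and 3 in HIF-1α knockdown. The difference between GATA3 knockdown and si-Control was 0.34 (SE 0.37), with overlap. The second IL6 probe, for a predicted transcript, had values on all 9 arrays, 10.32, 10.20 and 10.29 in si-Control, 10.63, 10.67 and 10.95 in GATA3 knockdown, and 11.36, 11.07 and 10.39 in HIF-1α knockdown. On that probe GATA3 knockdown was higher than si-Control by 0.48 (SE 0.28), in the same direction as the brighter probe but without overlap. With the mean of both probes the difference was 0.57, and IL6 was then counted as higher.

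LIF, which encodes leukaemia inhibitory factor, measured 13.31, 13.06 and 13.58 in si-Control, 14.04, 13.24 and 13.59 in GATA3 knockdown, and 13.37, 13.30 and 13.52 in HIF-1α knockdown. The groups overlapped, and the difference between GATA3 knockdown and si-Control was 0.31 (SE 0.27). The second LIF probe gave 1.07 (SE 0.57), which came mainly from slide 1, with 2.93 there against 0.38 and -0.10 on slides 2 and 3.

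**Figure D1:**
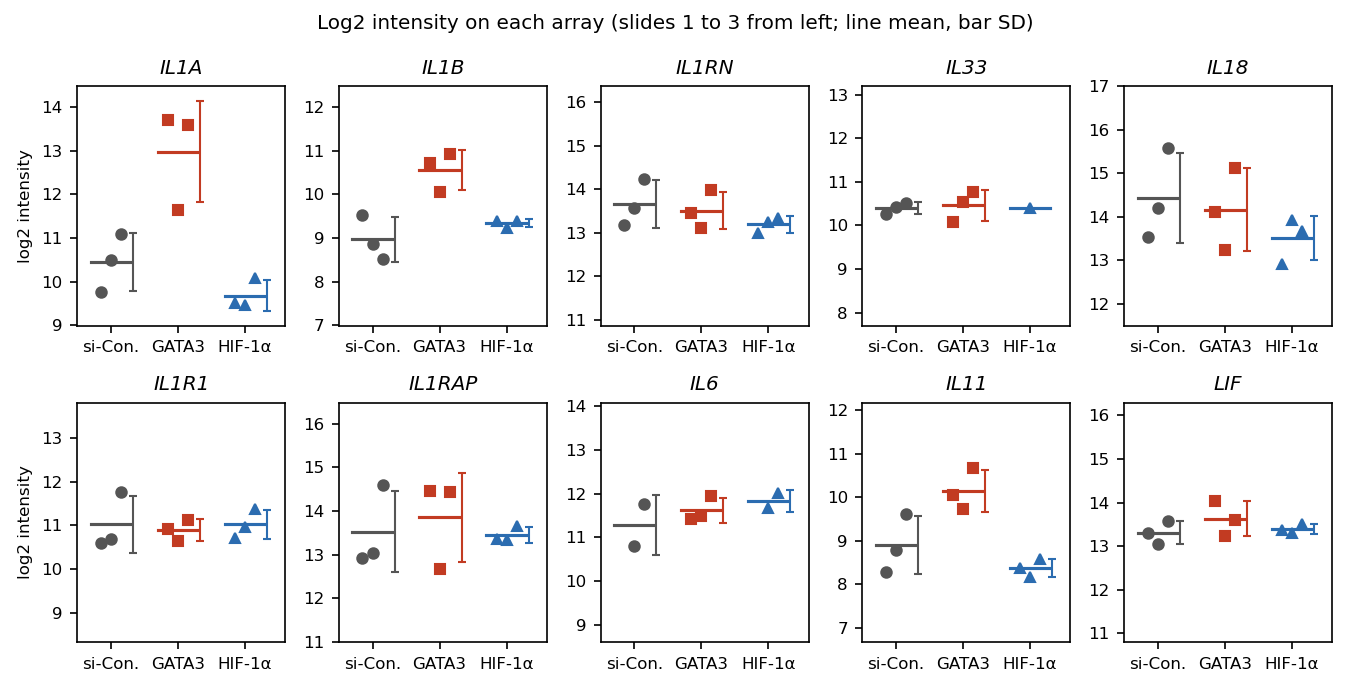
Log2 intensity (vertical axis, each panel spanning the same range of log2 units) of the brightest probe of each of the 10 genes on the 3 arrays of each group. Points are arrays, horizontal lines group means and bars the SD; IL33 has 1 value in HIF-1α knockdown, and IL6 has 2 values there and in si-Control. In IL1A, IL1B and IL11 all 3 GATA3 knockdown arrays sit above the 6 other arrays.

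Over the 10 genes, 3 were higher in GATA3 knockdown than in si-Control at the unadjusted P of 0.05 used in the methods, IL1A, IL1B and IL11, and 0 were lower. Of all 47720 genes tested, 2.97% passed this threshold and 1.59% were higher. With the slide as a block, 2381 of all genes passed in place of 1418. Of the genes that passed, 53.5% were higher, and 78.0% with the scanner's processed signal, 76.0% in the authors' table and 69.6% with 75th percentile scaling after normexp. The genes were chosen on this comparison, so nothing is read from that count. The same 3 were the genes whose GATA3 knockdown arrays all lay above the si-Control arrays, as did 2.59% of all genes with 6 values. After Benjamini-Hochberg adjustment 0 of the 10 passed, as did 0% of all genes. The median difference was 0.32 over the 10 genes and -0.02 over all genes. Against HIF-1α knockdown the same 3 genes were higher and 0 were lower, where 12.0% of all genes passed and 6.93% were higher, that is 57.8% of those that passed, and 69.1% with 75th percentile scaling after normexp. All 3 also lay above the HIF-1α knockdown arrays without overlap, as did 11.9% of all genes. After adjustment 0 of the 10 passed in that comparison, beside 0.00422% of all genes.

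**Figure D2:**
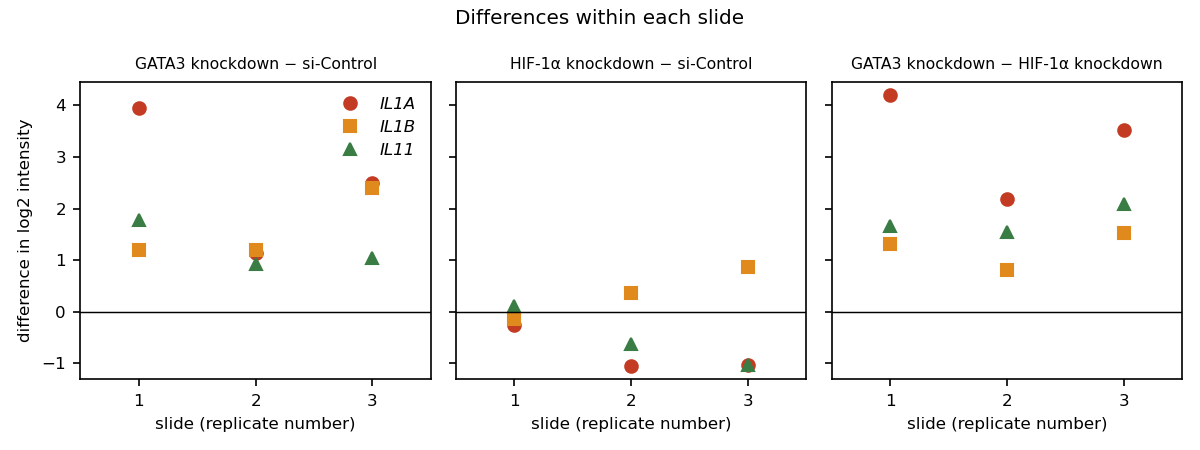
Difference in log2 intensity (vertical axis) between the 2 arrays of a comparison on the same slide (horizontal axis, slide and replicate number) for IL1A, IL1B and IL11. GATA3 knockdown was above si-Control and HIF-1α knockdown on all 3 slides for the 3 genes, while HIF-1α knockdown lay on both sides of si-Control for IL1B and IL11.

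No gene of the 10 passed the test in HIF-1α knockdown. The limma count was 0 of 10 at the unadjusted P of 0.05 and 0 of 10 after adjustment, where 5.23% and 0% of all 47368 genes passed. Of the 10 genes, 8 had values on all 6 arrays, and all 8 overlapped between HIF-1α knockdown and si-Control. Of all genes with 6 values, 13.3% did not overlap. IL6 had 2 values a group, and the count for IL33 rests on a single HIF-1α knockdown array. The difference was above 0 for 5 genes and below 0 for 5, with a median of -0.03, beside -0.01 over all genes.

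IL1A differed by -0.77 between HIF-1α knockdown and si-Control (SE 0.54, 95% interval -1.99 to 0.44). Within slides it was -0.26, -1.04 and -1.02, so IL1A was lower on each slide. IL1B differed by 0.37 (95% interval -0.34 to 1.08), and IL1RN by -0.46 (95% interval -1.19 to 0.27). The second IL1RN probe gave -0.67 (SE 0.59). The limma adjusted P was 0.823 for IL1A, IL1B and IL1RN alike. The intervals do not exclude changes of either sign.

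IL18 had the most negative difference of the 10, -0.93 (SE 0.58, 95% interval -2.22 to 0.37, limma adjusted P = 0.823), with -0.60, -0.28 and -1.90 within slides. Without si-Control replicate 1 it was -1.38 and passed the unadjusted threshold. IL11 differed by -0.51 (95% interval -1.33 to 0.31, limma adjusted P = 0.823), and without the same si-Control array by -0.82, which also passed. Neither passes with all arrays.

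IL6 differed by 0.56 on the brighter probe (95% interval -0.37 to 1.49, limma adjusted P = 0.823), from 2 arrays in each group. Without si-Control replicate 3, which leaves 1 si-Control value assumed to vary like the other groups, it was 1.05 and passed the unadjusted threshold. On the second IL6 probe the difference was 0.67 (SE 0.28, limma adjusted P = 0.828). It passed the unadjusted threshold, and the groups did not overlap. Within slides that probe was higher by 1.04, 0.87 and 0.10. IL1R1 differed by 0.00 (95% interval -0.76 to 0.76), IL1RAP by -0.07 (95% interval -1.30 to 1.16) and LIF by 0.08 (95% interval -0.51 to 0.67), with limma adjusted P values of 1, 0.978 and 0.94. The single HIF-1α knockdown value of IL33 lay within the si-Control range.

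**Figure D3:**
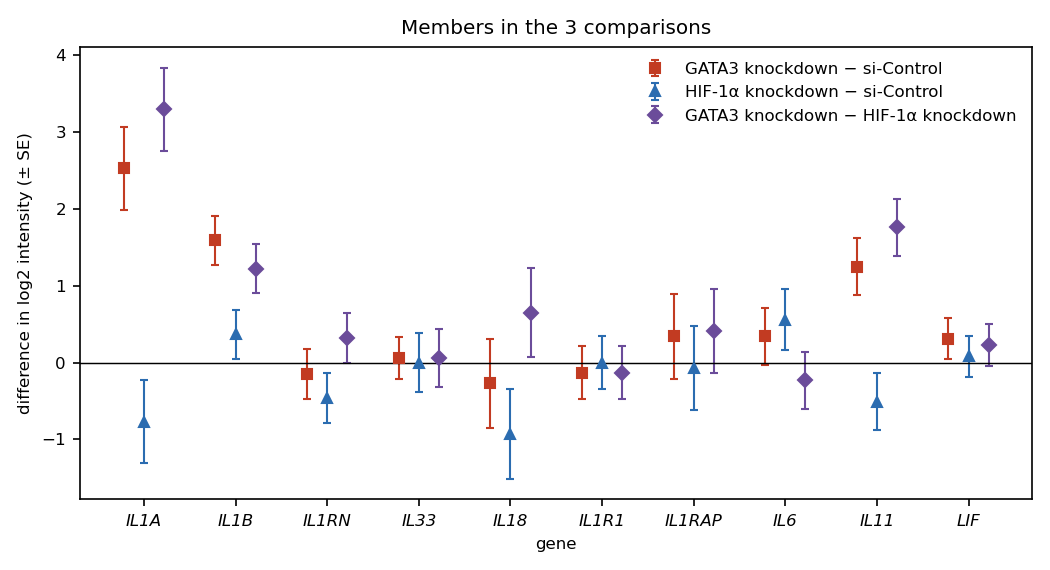
Difference in log2 intensity (vertical axis, bars ± SE) of each of the 10 genes in the 3 comparisons. IL1A, IL1B and IL11 stand above 0 in both comparisons of GATA3 knockdown, at 2.53, 1.59 and 1.25 against si-Control, and IL1A is the highest in each; the 3 comparisons share arrays.

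Around the 10 genes, 9 lists with 88 other genes of the same pathways were counted. The lists were chosen with earlier results of these data known, so their counts below are a description and carry no test. In GATA3 knockdown against si-Control, 5 were higher and 3 lower, 9.09% of the 88, beside the 2.97% of all genes that passed and the 1.59% that were higher. Without si-Control replicate 3 the count was 21 in place of 8, while 6006 of all genes passed in place of 1418. Of 20 IL-1 response genes, 4 were higher and 1 lower, with a median of 0.36. CXCL8, which encodes the neutrophil chemokine IL-8, had the highest measured difference of the 88. It measured 7.13, 7.09 and 8.20 in si-Control, 11.76, 10.21 and 10.98 in GATA3 knockdown, and 7.17, 7.18 and 7.14 in HIF-1α knockdown. The probe exceeded background clearly on each GATA3 knockdown array but on a single array of either other group. The measured difference from si-Control was 3.51 (SE 0.41). Only the si-Control array of slide 3 was well above background, and the difference there was 2.79, while those of 4.62 and 3.12 on slides 1 and 2 were against background signal.

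ICAM1, the leukocyte adhesion receptor, measured 13.28, 14.18 and 15.35 in si-Control, 16.55, 15.77 and 16.44 in GATA3 knockdown, and 12.61, 13.30 and 13.40 in HIF-1α knockdown. It was higher in GATA3 knockdown by 1.98 (SE 0.48), or 3.95-fold. CXCL2, another neutrophil chemokine, was higher by 0.93 (SE 0.23). CSF2, the gene for GM-CSF, was counted as higher by 0.73 but was not well above background on any array. PTGES, a prostaglandin E synthase, was lower by 1.01 (SE 0.41). PTGS2, CSF3 and TNFAIP3 differed by 0.03, -0.01 and 0.78 and did not pass.

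The IL-1 family members outside the 10 showed less. Of 6 other ligands, 0 passed in any comparison. Of 8 other receptors and binding proteins, IL1RL2, the IL-36 receptor, was lower in GATA3 knockdown by 0.61 (SE 0.20), with 12.35, 12.39 and 12.42 in si-Control against 11.70, 11.87 and 11.78. Among 11 genes of IL-1 processing and 12 of IL-1 receptor signalling, 0 passed in that comparison. In the IL-6 lists, OSMR, the receptor subunit for oncostatin M, was higher by 0.91 (SE 0.40), with overlap. The other 6 receptor genes did not pass, nor did any of 7 signalling and 10 response genes of the IL-6 pathway.

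In HIF-1α knockdown against si-Control, 5 of the 88 passed, 5.68%, near the 5.23% of all genes. All 5 were lower, a direction that 3.28% of all genes took at this threshold. Of all genes that passed, 37.3% were higher, and 53.1% with the processed signal and 52.2% in the authors' table. The count depended on single arrays, with 11 without si-Control replicate 1 and 2 or 3 without any other si-Control or HIF-1α knockdown array. Of all genes, 4798 passed without si-Control replicate 1, in place of 2478, and 1412 to 2683 without any of those others. With the slide as a block the count was 8, and 3983 of all genes passed. CSF3, the gene for G-CSF, measured 11.48, 11.93 and 12.50 in si-Control and 11.01, 10.72 and 10.71 in HIF-1α knockdown. It was lower by 1.16 (SE 0.31, limma adjusted P = 0.763) and without overlap. TNFAIP3, an inhibitor of NF-kappaB signalling, was lower by 1.74 (SE 0.72), with -0.23, -2.27 and -2.73 within slides. ICAM1 was lower by 1.17 (SE 0.48), and both TNFAIP3 and ICAM1 overlapped between the groups. PTGS2, the inducible cyclooxygenase, was lower by 0.70 (SE 0.31), with -0.01, -0.84 and -1.24 within slides. The inflammasome sensor NLRP3 was lower by 0.63 (SE 0.24). PTGS2 and NLRP3 did not overlap. CSF3, TNFAIP3, ICAM1 and PTGS2 are 4 of the 20 IL-1 response genes, which had a median of -0.23. The limma adjusted P was 0.823 for TNFAIP3, ICAM1, PTGS2 and NLRP3, and 0 of the 88 passed an adjusted P of 0.05.

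GATA3 knockdown against HIF-1α knockdown gave 12 higher and 4 lower, 18.2% of the 88. It was also the comparison with the most calls over all genes, of which 12.0% passed and 6.93% were higher. The count was 28 without si-Control replicate 3, where 9465 of all genes passed in place of 5675. It was 10 without GATA3 knockdown replicate 3 or HIF-1α knockdown replicate 1, where 2693 and 3063 of all genes passed. With the slide as a block the count was 29, and 8876 of all genes passed. Of the 20 IL-1 response genes, 10 were higher and 0 lower, with a median of 0.75. CXCL8 was higher by 3.82, ICAM1 by 3.15, TNFAIP3 by 2.52 and ZC3H12A, an RNase that degrades cytokine messenger RNA, by 1.33. IL1RL1, the receptor for IL-33, was higher by 1.55 (SE 0.67), with 12.14, 12.23 and 13.78 in GATA3 knockdown and 10.46, 11.28 and 11.74 in HIF-1α knockdown. IL1RL2 was lower by 0.51 (SE 0.20). JAK1 was higher by 0.89, and SOCS1, a STAT-induced inhibitor, lower by 0.82. IRAK3, an inhibitory kinase of the pathway, stayed within background on the GATA3 knockdown arrays and was lower there by at least 1.84-fold.

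**Figure D4:**
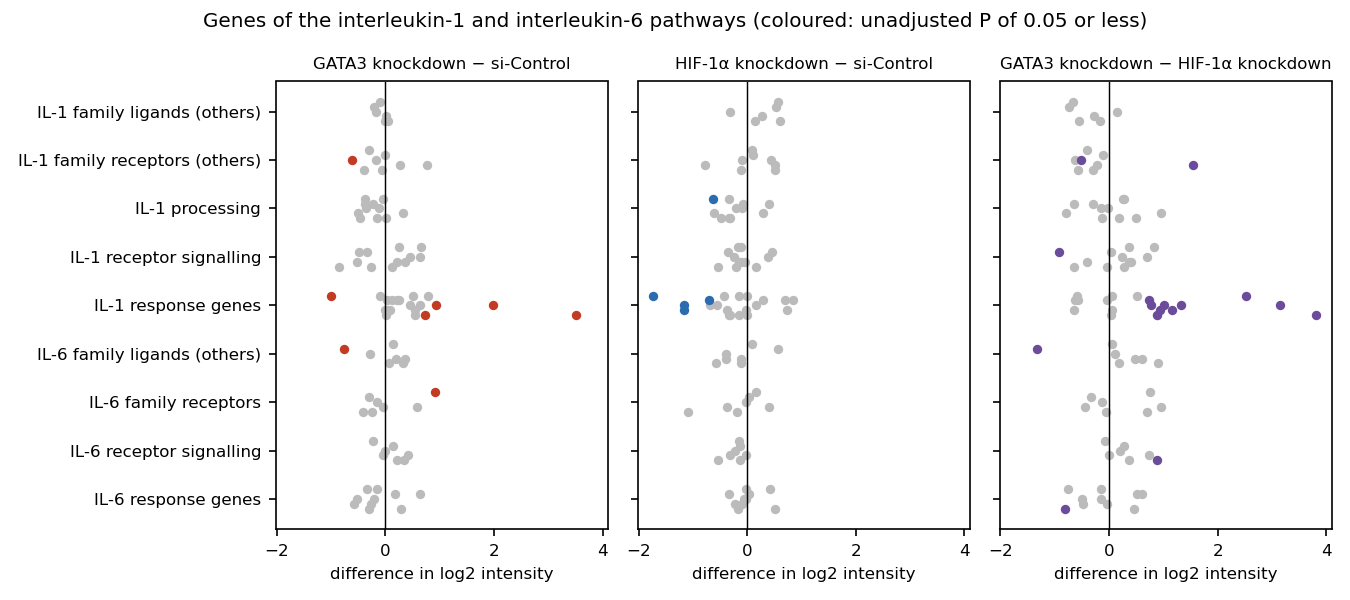
Difference in log2 intensity (horizontal axis) of 88 genes in 9 lists of the IL-1 and IL-6 pathways (rows) in the 3 comparisons. Each point is a gene, coloured where its unadjusted P was 0.05 or less and grey otherwise; the coloured IL-1 response genes lie mostly to the right in GATA3 knockdown, with CXCL8 at 3.51, and all to the left in HIF-1α knockdown.

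IL1A, IL1B and IL1RN lie on chromosome 2 in 1 cluster with the genes of IL-37, IL-38 (IL1F10) and the IL-36 cytokines. In gene order, IL1A and IL1B are neighbours, and IL37, IL36G, IL36A, IL36B, IL36RN and IL1F10 lie between IL1B and IL1RN. In GATA3 knockdown against si-Control, these 6 genes differed by -0.10, -0.17, 0.04, 0.02, -0.20 and 0.00, and each difference was smaller than its SE. Beyond IL1RN, PSD4 differed by -0.01 and PAX8 by -0.26. The IL36G probe exceeded background in GATA3 knockdown on 1 of 3 arrays. In HIF-1α knockdown, IL37, IL36A and IL36RN were higher by 0.57, 0.60 and 0.53 and did not pass (limma adjusted P = 0.823 for each). On slide 3 they were higher by 1.63, 1.16 and 1.38, but on slide 2 lower by 0.32, 0.04 and 0.32. On slide 1 only IL37 had a difference, 0.40. IL36RN had 2 values in every group, and IL36G and IL36A had 2 in si-Control.

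**Figure D5:**
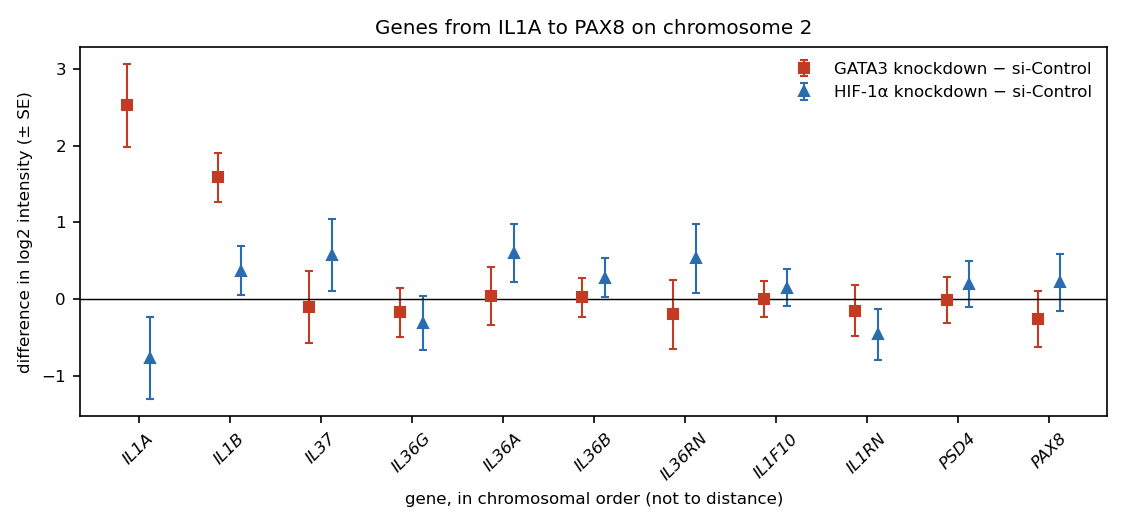
Difference in log2 intensity (vertical axis, bars ± SE) from si-Control of GATA3 knockdown and HIF-1α knockdown, for the genes from IL1A to PAX8 in their order on chromosome 2. IL1A and IL1B stand at 2.53 and 1.59 in GATA3 knockdown, and the genes from IL37 to PAX8 lie between -0.26 and 0.04.

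The pattern of IL1A over the 9 arrays was compared with that of 13248 genes well above background on every array of at least 1 group and with a range of at least 1. This likeness is a description over 9 arrays that share the 3 groups. The highest Pearson correlations were with YWHAE (0.974), GPM6A (0.965), PIKFYVE (0.964), HMGXB3 (0.961) and SLC41A1 (0.959). In this order, they differed between GATA3 knockdown and si-Control by 0.49, 1.41, 0.72, 0.41 and 1.23, all with overlap. YWHAE and HMGXB3 did not pass the unadjusted threshold. SLC41A1, a magnesium transporter, measured 9.90, 10.01 and 11.11 in si-Control, 11.85, 10.93 and 11.92 in GATA3 knockdown, and 9.40, 9.95 and 9.89 in HIF-1α knockdown. GPM6A, a neuronal membrane glycoprotein, measured 12.33, 12.22 and 13.22 in si-Control and 14.75, 12.95 and 14.30 in GATA3 knockdown, and like IL1A was lower on the second GATA3 knockdown array than on the others. IL11 ranked 10 of 13248 with 0.953, while IL1B ranked 1259 with 0.774. The correlation was 0.612 for IL1RAP, 0.479 for IL18, 0.475 for IL1RN and 0.138 for IL1R1, and LIF, whose range was under 1 and which was not ranked, had 0.675. IL33 and IL6, with values on 7 arrays each and not ranked, had 0.115 and 0.08.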

How the data were processed

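RNA was measured on 9 single-dye Agilent arrays. The authors deposited, for each array, Feature Extraction 10.5.1.1 output (submitters' processing notes) holding the median intensity of spot and local background, and a log2 table. The deposited intensity values are linear and not normalized between arrays. The authors' log2 values lay within 0.001 of the log2 processed signal less 1 constant on at least 99.8% of 58201 probes per array, with array medians from -2.40 to -2.07. The deposited marks for non-uniform and well above background spots were used as given.

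The genes and lists were chosen with earlier results of these data known. In R 4.3.3 with limma 3.58.1, the median signal was corrected with normexp (offset 50). The design named the mean signal where present, and the files hold the median. Non-uniform spots were set to missing, control spots dropped, log2 values quantile normalized and spots averaged per probe. The probe with the highest mean stood for its gene. Accessions were matched to RefSeq symbols. A single limma model (lmFit, eBayes) held all 3 groups, two-sided, at the unadjusted P of 0.05 of the supplementary methods, with Benjamini-Hochberg adjustment over all genes tested. The number of arrays limits the precision. The fit was tested on simulated data. Where no array of a group measured a probe well above background, its fold is a bound (at least), set per array against the higher of its own signal and the lowest signal of probes that were. Genes named are GATA3, HIF1A, the 10 chosen genes, from each list at most the 4 with the largest change past the threshold in a comparison, and the 5 most like IL1A. A gene that this rule names, counted in its list, is not reported here. The neighbours of IL1A, CSF2 and pathway genes named for not passing were chosen after their values were seen. The alternatives were the processed signal and the authors' table, other background corrections and offsets, 75th percentile scaling, non-uniform spots kept, dim probes filtered, other rules for a gene's probe, a replicate block, separate fits, eBayes with trend and robust, adjusted P, and each array left out.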

Additional observations from a re-analysis of the deposited data

How the results depend on the processing

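IL1A, IL1B and IL11 were higher in GATA3 knockdown than in si-Control, and called, under every alternative except adjusted P, by 2.16 to 3.20, 1.37 to 2.06 and 0.94 to 1.63. The genes were chosen on this comparison in these same arrays, so this is a description and carries no test. With adjusted P, 0 of the 10 genes were called in both comparisons of GATA3 knockdown, and 0 of the 88 pathway genes in any comparison. With each array left out, 3 of the 10 were called in both comparisons of GATA3 knockdown, and 0 to 2 in HIF-1α knockdown (2 without si-Control replicate 1, 1 without si-Control replicate 3). With the mean of all probes IL6 was called as well, giving 4 of the 10 in GATA3 knockdown against si-Control (IL6 0.57) and 1 in HIF-1α knockdown (IL6 0.70). With any probe of a gene, 1 was called in HIF-1α knockdown, again IL6. Of the 88, 6 to 21 were called in GATA3 knockdown with each array left out, with 21 without si-Control replicate 3. The same range was 2 to 11 in HIF-1α knockdown, with 11 without si-Control replicate 1 and 2 without HIF-1α knockdown replicate 1 or 2, and 10 to 28 between the knockdowns, with 28 without si-Control replicate 3 and 10 without GATA3 knockdown replicate 3 or HIF-1α knockdown replicate 1. With 75th percentile scaling after normexp, of the 88 there were 5 called with GATA3 siRNA, and 3 in HIF-1α knockdown, where that scaling moved the median of all genes to -0.10, and to 0.15 between the knockdowns. In HIF-1α knockdown 3 were also called with the processed signal, the authors' table, the mean of probes, separate fits, and trend and robust. Between the knockdowns 9 were called with the processed signal and with the authors' table, and 28 in separate fits. The cause of these shifts was not tested.

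The direction in HIF-1α knockdown turned for IL33 with the processed signal (-0.02) and with the replicate block (-0.05), and for IL1RAP with the mean of its probes (0.19). With each array left out, the difference ran from -0.07 to 0.06 for IL33, -0.21 to 0.37 for IL1R1, -0.37 to 0.47 for IL1RAP and -0.04 to 0.21 for LIF. Over all alternatives it ran from -0.07 to 0.52 for IL33, and the ranges of IL1R1, IL1RAP and LIF were unchanged. Arrays with the same number shared a slide. Their deviations from the group means correlated at 0.216, 0.592 and 0.723 between si-Control and GATA3 knockdown, so these pairs passed 0.1, but over all 9 pairs from -0.189 to 0.723, over 0.1 in 7, and 5 of 9 correlated best with their own number. With the replicate block, which changed no call among the 10 genes, 8 of the 88 were called in HIF-1α knockdown and 29 between the knockdowns, and of all genes 2381 in place of 1418 in GATA3 knockdown, 3983 in place of 2478 in HIF-1α knockdown and 8876 in place of 5675 between them. With each array left out, the count over all genes ran from 953 to 6006 in GATA3 knockdown (without si-Control replicates 2 and 3), from 1412 to 4798 in HIF-1α knockdown (without HIF-1α knockdown replicate 1 and si-Control replicate 1), and from 2693 to 9702 between the knockdowns (without GATA3 knockdown replicates 3 and 2). Separate fits gave 928 with GATA3 siRNA and 8630 between the knockdowns, and with GATA3 siRNA there were 3050 from the processed signal and 2889 from the authors' table.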
